A study of Mus musculus with 9 samples.

Results

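Glucuronosyltransferases (UGT), cytosolic sulfotransferases (SULT), carboxylesterases (CES) and flavin-containing monooxygenases (FMO) are the enzyme families described here, across 9 mouse liver tumors. Members were taken by symbol, as all names beginning with Ugt1a, Ugt2a, Ugt3a, Ugt2b, Sult, Ces or Fmo followed by a digit. That gave 65 of the 24421 symbols in the files, made up of 20 UGT, 19 SULT, 19 CES and 7 FMO symbols. Of these, 41 reached a log2 value of 4 in 3 or more tumors and were tested. The other 24 were below that level, and 5 of them (Ces2f, Ces2h, Sult1c1, Ugt2a1 and Ugt2a2) were listed at 0 in 9 of 9 tumors.

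These families handle lipophilic compounds in hepatocytes and in the epithelium of the gut. UGT enzymes sit in the endoplasmic reticulum and attach glucuronate from UDP-glucuronate to bilirubin, steroids, bile acids and drugs. SULT enzymes sit in the cytosol and attach sulfate from the donor PAPS, CES enzymes cleave esters and amides, including stored lipids and prodrugs, and FMO enzymes oxidise soft nitrogen and sulfur atoms.

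The tumors were labelled S7HP+Snail (tumors 13, 14 and 15), S7HP (tumors 9, 11 and 12) and LHP (tumors 2, 3 and 6), all from C57BL/6 mice aged 11 weeks. The column names in the files tie S7HP+Snail to Smad7 together with Snail, S7HP to Smad7, and LHP to a luciferase construct (Luc). Smad7 is the inhibitory Smad of TGF-β signaling, and Snai1 encodes Snail, a repressor known from epithelial-mesenchymal transition. The labels do not spell out the letters HP, which the 3 groups share. In what is known of this kind of model they stand for activated HRAS and a hairpin against p53, and the labels give neither the promoter, the delivery nor the number of animals. Endogenous Smad7 was not higher where the label names it: its log2 value averaged 7.36 ± 0.62 in S7HP+Snail tumors, 6.52 ± 0.27 in S7HP tumors and 10.07 ± 0.52 in LHP tumors (SD, n = 3 each). Snai1 averaged 8.10 ± 0.69 in S7HP+Snail tumors, 6.48 ± 0.39 in S7HP tumors and 10.69 ± 0.66 in LHP tumors (SD, n = 3 each). The libraries read the 3′ ends of transcripts, and whether the constructs carry the endogenous 3′ ends is not stated, so the groups are taken from the labels alone.

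All values are log2(normalized count + 1), one 3′ library per tumor, with totals of 19910396 to 19911234 normalized counts that the authors' normalization made nearly equal. Counts at the 3′ end are not scaled by transcript length. The read depth behind each value is unknown, and 3 reads corresponded to a log2 value of about 1.22 to 2.64, if the lowest values in a file are successive read counts. Among the 36 pairs of libraries none were identical, and the highest correlation across genes was 0.945. Whether the tumors came from separate animals is not stated, so the p-values measure only the spread between these samples.

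The 8 Ugt1a symbols (Ugt1a1, Ugt1a2, Ugt1a5, Ugt1a6a, Ugt1a6b, Ugt1a7c, Ugt1a9 and Ugt1a10) are alternative first exons spliced to common last exons on chromosome 1. All 8 end in an exon that starts at position 88218127 (GRCm38, plus strand). In any tumor their values differed by at most 0.0208 on the log2 scale, so the files hold 1 Ugt1a measurement under 8 names. The coding ends below are shown because they carry the reason: the first 60 bases differ between the isoforms printed, while the last 60 bases are the same in 8 of 8. No single base is marked, so all letters are in lower case. They come from GENCODE transcripts (mouse release 21).
Ugt1a1 first 60 coding bases: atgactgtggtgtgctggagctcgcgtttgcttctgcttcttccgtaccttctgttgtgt
Ugt1a6a first 60 coding bases: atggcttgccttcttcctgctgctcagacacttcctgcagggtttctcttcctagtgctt
Ugt1a9 first 60 coding bases: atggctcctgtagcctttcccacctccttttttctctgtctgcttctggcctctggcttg
Last 60 coding bases of Ugt1a1, Ugt1a6a, Ugt1a9 and the other 5: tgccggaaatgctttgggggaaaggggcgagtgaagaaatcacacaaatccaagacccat
Over the 28 pairs of symbols the shared coding end ran to 737 to 851 bases, and 14 to 60 of the first 60 bases were the same (60 in Ugt1a6a and Ugt1a6b). The number of members called in each comparison is therefore also given with Ugt1a counted once, which leaves 34 tested loci, and counts without that remark hold Ugt1a 8 times.

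Promoters of the members were searched for motifs on both strands, and results for 3 motifs are given here, in 300 bases around each RefSeq start (GRCm38.p6), which gave 57 promoters of 52 members and 32851 in all. The HNF4 letters CAAAGTCCA were found in 1 of the 57 promoters, that of Sult1b1 (1.75%, against 0.475% of all), and the FOX letters TGTTTAC in 6 (10.5%, against 3.65%). The E-box letters CACCTG, a motif that Snail proteins can bind, were found in 7 (12.3%, against 20.2%). Those were promoters of Ces2c, Sult1c1, Sult1c2, Sult2b1, Sult3a1, Sult6b1 and Ugt3a1. These are matches of letters and not measured binding.

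The first comparison asked what differed between tumors labelled S7HP and their luciferase counterparts, LHP. In S7HP tumors 21 of the 41 tested members were higher and 0 were lower (limma, Benjamini-Hochberg adjusted p under 0.05), where 9.47% of all 14215 tested genes were higher and 9.54% were lower. With Ugt1a counted once, 14 of 34 were higher (41.2%). Of the 21, Sult1b1 and Sult1c2 reached the filter only outside LHP. Over the 36 members with at least 1 LHP tumor at 4 or above, 19 were higher, against 8.57% of all 13784 such genes. The median change was 1.84 (1.62 with Ugt1a once), beside 0.02 over all tested genes. In 22 members (15 with Ugt1a once) each S7HP tumor lay above each LHP tumor, as in 20.9% of all tested genes. By family the calls were 12 of 16 UGT symbols (4 of 8 outside Ugt1a), 4 of 8 SULT, 4 of 14 CES and 1 of 3 FMO.

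**Figure D1:**
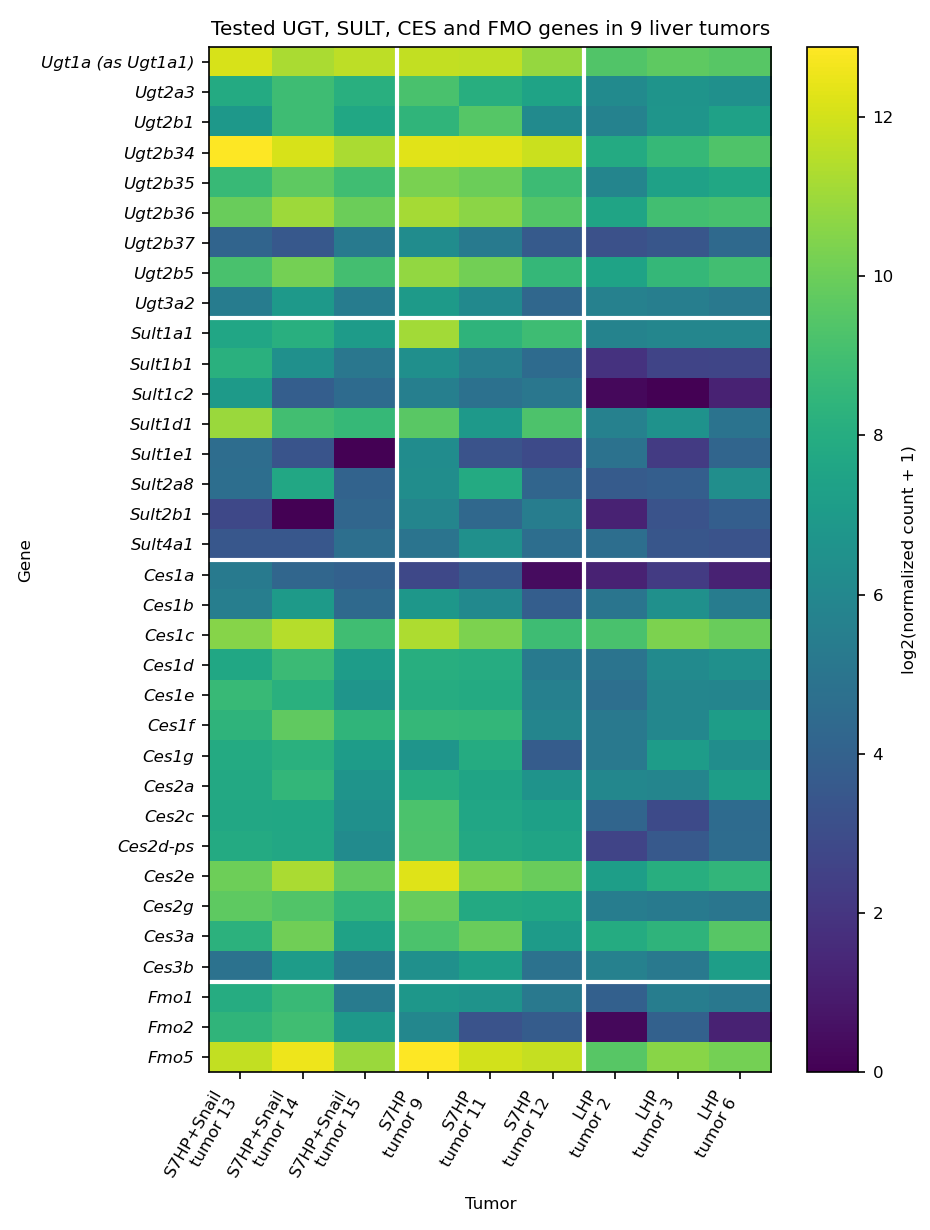
Log2(normalized count + 1) of the tested genes (rows, grouped as UGT, SULT, CES and FMO, with the 8 Ugt1a symbols drawn once) in each of the 9 tumors (columns, S7HP+Snail, then S7HP, then LHP). Ugt1a, Ugt2b34 and Fmo5 are bright in the S7HP+Snail and S7HP tumors, and the Ces1 rows of S7HP tumor 12 are within or below the range of the LHP tumors.

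Among the UGT genes, Ugt1a, whose Ugt1a1 isoform conjugates bilirubin, stood at 12.08, 11.27 and 11.58 in S7HP+Snail tumors, 11.72, 11.63 and 10.82 in S7HP tumors, and 9.40, 9.71 and 9.52 in LHP tumors (read as Ugt1a1). Every S7HP+Snail and S7HP tumor lay above every LHP tumor. The difference of S7HP from LHP was 1.85 ± 0.30 (SE), or 3.60-fold on the scale of normalized count + 1, with an adjusted p of 0.00394 in limma.

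Ugt2b34, a Ugt2b gene at chr5:86889767-86906937, had the highest mean of the UGT genes in S7HP+Snail and in S7HP tumors. It read 12.87, 12.11 and 11.26 in S7HP+Snail tumors and 12.28, 12.23 and 11.84 in S7HP tumors, against 7.87, 8.65 and 9.32 in LHP tumors. The LHP tumors were well apart from the rest, with no overlap. S7HP differed from LHP by 3.50 ± 0.44 (SE; limma adjusted p = 0.00136). The Ugt2b genes lie side by side on chromosome 5, and the differences of the others were smaller. Ugt2b35 read 10.31, 9.99 and 8.83 in S7HP tumors and 5.86, 7.38 and 7.67 in LHP tumors, a difference of 2.74 ± 0.54 (SE; limma adjusted p = 0.00889). Ugt2b36 read 11.15, 10.62 and 9.43 in S7HP tumors and 7.53, 9.01 and 9.11 in LHP tumors, where the lowest S7HP tumor was close to the highest LHP tumor. Its difference was 1.85 ± 0.54 (SE; limma adjusted p = 0.0418), and leaving out any one of LHP tumors 2, 3 and 6, S7HP tumors 9 and 11 or S7HP+Snail tumor 13 took the adjusted p above the threshold, to at most 0.136. Ugt2b5 read 10.81, 10.12 and 8.56 in S7HP tumors and 7.47, 8.57 and 8.98 in LHP tumors, overlapping, with a difference of 1.49 ± 0.60 (SE; limma adjusted p = 0.11). Ugt2b1 and Ugt2b37, at differences of 1.41 and 1.36, had overlapping groups and limma adjusted p-values of 0.263 and 0.257.

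The make-up of the Ugt2b family differed along with its total. Summed over its 7 symbols, Ugt2b gave 9592, 9006 and 4727 normalized counts in S7HP+Snail tumors, 10731, 9267 and 5271 in S7HP tumors, and 713, 1573 and 2092 in LHP tumors. Ugt2b34 supplied 49.2% to 77.9% of that sum in S7HP+Snail tumors, 46.3% to 69.5% in S7HP tumors and 25.4% to 32.8% in LHP tumors. Ugt2b5 supplied 6.06% to 13.1% in S7HP+Snail tumors, 7.15% to 16.7% in S7HP tumors and 24.2% to 24.7% in LHP tumors. The shares in LHP tumors did not overlap those of the other groups for either gene, and no test was made of them.

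Ugt2a3, the Ugt2a gene with signal here and an enzyme known to act on bile acids, read 9.19, 8.08 and 7.46 in S7HP tumors and 6.17, 6.69 and 6.49 in LHP tumors. The groups did not overlap, and the difference was 1.79 ± 0.45 (SE; limma adjusted p = 0.0224). The call was lost without any one of LHP tumors 2, 3 and 6 or S7HP tumors 9 and 11, at an adjusted p of at most 0.0703. Ugt3a2, whose human counterpart uses UDP-sugars other than UDP-glucuronate, averaged 5.81 ± 1.39 in S7HP tumors and 5.46 ± 0.22 in LHP tumors (SD, n = 3 each). Its difference of 0.35 had a 95% interval of -1.22 to 1.91.

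**Figure D2:**
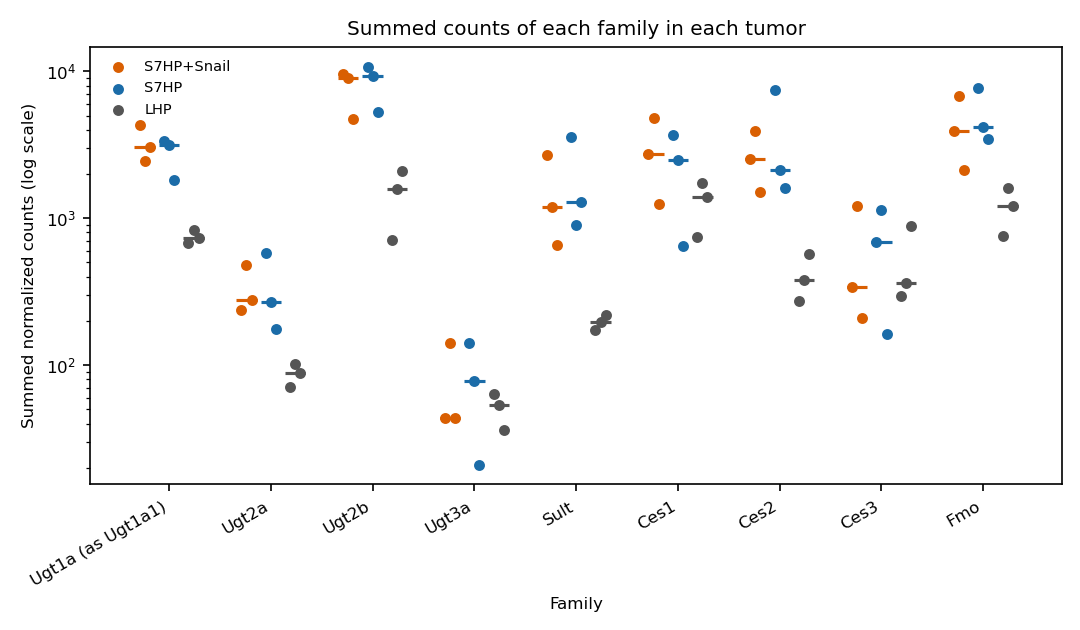
Summed normalized counts (log scale) of each family in each tumor, as points, with a bar at the group median and the groups S7HP+Snail, S7HP and LHP from left to right. The LHP points lie below all others for Ugt1a, Ugt2a, Ugt2b, Sult, Ces2 and Fmo, and overlap them for Ugt3a, Ces1 and Ces3.

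Of the SULT genes, Sult1a1, the main phenol sulfotransferase of liver (chr7:126672865-126676432), read 7.61, 8.11 and 7.07 in S7HP+Snail tumors, 11.10, 8.36 and 8.90 in S7HP tumors, and 5.75, 5.93 and 5.90 in LHP tumors. S7HP tumors were highest and LHP tumors lowest, with no overlap between any of the 3 groups. S7HP differed from LHP by 3.59 ± 0.62 (SE; limma adjusted p = 0.00535). Sult1d1, which in the mouse conjugates catecholamines and other phenols, read 10.95, 8.96 and 8.62 in S7HP+Snail tumors, 9.60, 6.96 and 9.29 in S7HP tumors, and 5.68, 6.57 and 4.89 in LHP tumors. S7HP tumor 11 was just above the highest LHP tumor, and the difference was 2.91 ± 0.81 (SE; limma adjusted p = 0.0337). Without any one of LHP tumors 2, 3 and 6 or S7HP tumors 9 and 12 that call was lost, at an adjusted p of at most 0.117.

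Sult1b1, which conjugates thyroid hormones and phenols, was at 6.42, 5.53 and 4.50 in S7HP tumors and 1.87, 2.64 and 2.69 in LHP tumors. The LHP values stand near the level of 3 reads. The difference was 3.08 ± 0.81 (SE; limma adjusted p = 0.0269), lost without any one of LHP tumors 2, 3 and 6 or S7HP tumors 9 and 11 (at most 0.0966) and with 16 in place of 1 added to the counts (0.0937). Sult1c2, another phenol-type sulfotransferase, was at 5.58, 4.79 and 5.10 in S7HP tumors, and at 0.29, 0 and 1.22 in LHP tumors, 1 of them listed at 0. Its difference of 4.65 ± 0.90 (SE; limma adjusted p = 0.00802) depends on the 1 added to the counts and missed the threshold with 16 added instead (adjusted p = 0.0579). Sult1e1, the estrogen sulfotransferase, differed by 0.40 (limma adjusted p = 0.865), and Sult2a8, a bile acid sulfotransferase of mouse liver, had a 95% interval of -1.17 to 4.17 (limma adjusted p = 0.408). Summed over 19 symbols, SULT counts were 2675, 1196 and 657 in S7HP+Snail tumors, 3600, 899 and 1282 in S7HP tumors, and 172, 197 and 221 in LHP tumors, so the lowest of the first 6 was above the highest of the last 3.

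Several hydroxysteroid sulfotransferases lay below the filter and were seen mainly outside LHP. Sult2a1 was at 2.94, 5.36 and 2.92 in S7HP+Snail tumors, 6.73, 2.08 and 3.27 in S7HP tumors, and 0, 0 and 0.29 in LHP tumors. Sult2a5 was at 2.35, 4.35 and 1.35 in S7HP+Snail tumors and 6.27, 3.53 and 3.75 in S7HP tumors, and was listed at 0 in 3 of 3 LHP tumors, as was Sult2a2. With no filter, Sult2a2 and Sult2a5 passed in S7HP against LHP (limma adjusted p = 0.0134 and 0.0158), but with 3 zeros in LHP the size and the p-value depend on the 1 added and on a group with no spread. Their last 500 transcript bases share an identical run of 216 bases, so reads could be assigned to either. Sult2a1, Sult3a1 and Fmo2 are also among the genes known to be higher in female mouse liver. Of 12 such genes 4 were tested, Cyp2b9, Cyp2b13, Cyp3a41a and Fmo2, each of which reached the filter only outside LHP. Against LHP, Cyp2b9, Cyp2b13 and Cyp3a41a were called higher in S7HP, and Cyp2b9, Cyp2b13 and Fmo2 in S7HP+Snail. The sums of the list ranged over 194 to 686 normalized counts in S7HP+Snail tumors, 124 to 1180 in S7HP tumors and 3.1 to 36.2 in LHP tumors. The labels give no sex, the Y-linked genes Ddx3y, Eif2s3y, Kdm5d and Uty were detected in 9 of 9 tumors, and the part of sex-dependent genes in these results was not tested.

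Carboxylesterases split by subfamily in S7HP against LHP, in that 4 of 5 tested Ces2 genes and 0 of 7 tested Ces1 genes were higher. The share over all tested genes was 9.47%. Ces2c and Ces2d-ps, whose transcript ends are partly shared, count as 2 of the 4. No test of the difference between the subfamilies was made. In S7HP+Snail against LHP no Ces1 gene was called either in the fit of all 9 libraries. There each S7HP+Snail tumor lay above each LHP tumor for Ces1a, Ces1d, Ces1e, Ces1f and Ces1g, as in 14.7% of all tested genes. Their differences were 2.93, 2.00, 2.36, 2.73 and 1.52, and Ces1a reached the filter through the S7HP+Snail tumors alone. Ces2e, a liver esterase at chr8:104926260-104934672 and the highest of the Ces2 genes, read 10.03, 11.25 and 9.81 in S7HP+Snail tumors, 12.28, 10.34 and 9.92 in S7HP tumors, and 7.21, 8.07 and 8.48 in LHP tumors. All LHP tumors were lowest, and S7HP differed from LHP by 2.93 ± 0.62 (SE; limma adjusted p = 0.0121). Ces2g read 9.68, 9.38 and 8.49 in S7HP+Snail tumors, 9.91, 7.82 and 7.67 in S7HP tumors, and 5.44, 5.24 and 5.04 in LHP tumors, again without overlap. The S7HP difference was 3.23 ± 0.57 (SE; limma adjusted p = 0.00598).

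Ces2c, a drug- and lipid-hydrolysing enzyme, read 7.70, 7.70 and 6.48 in S7HP+Snail tumors, 9.23, 7.62 and 7.31 in S7HP tumors, and 4.21, 2.87 and 4.50 in LHP tumors. Ces2d-ps, annotated as a pseudogene next to it, read 7.86, 7.74 and 6.23 in S7HP+Snail tumors, 9.28, 7.79 and 7.51 in S7HP tumors, and 2.64, 3.60 and 4.56 in LHP tumors. Both rose in S7HP over LHP, by 4.19 ± 0.63 and 4.59 ± 0.67 (SE), with limma adjusted p-values of 0.0028 and 0.00247. Their transcript ends share an identical run of 181 bases within 500, and the files do not show which copy the reads came from. Ces2a, the remaining tested Ces2 gene, differed by 1.06 with overlapping groups (limma adjusted p = 0.221).

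Ces1c, which encodes the esterase that mouse liver secretes into plasma, had the highest count of the Ces1 genes in each of the 9 tumors, and its groups overlapped. It read 10.53, 11.46 and 8.95 in S7HP+Snail tumors, 11.31, 10.34 and 8.90 in S7HP tumors, and 9.19, 10.36 and 9.95 in LHP tumors. Its S7HP difference was 0.35 with a 95% interval of -1.24 to 1.94 (limma adjusted p = 0.765). Ces1d, a triacylglycerol hydrolase, read 8.09, 7.99 and 5.25 in S7HP tumors and 4.97, 6.17 and 6.48 in LHP tumors. Ces1d, Ces1e and Ces1f had differences of 1.24, 1.68 and 1.54 (limma adjusted p = 0.294, 0.133 and 0.195), and in all 3 genes S7HP tumor 12 was the low one of its group. Without that tumor Ces1d, Ces1e, Ces1f, Ugt2b1 and Ugt2b5 passed in S7HP against LHP (limma adjusted p = 0.0404, 0.032, 0.032, 0.0498 and 0.0288), and 25 members were higher. Ces1a, Ces1b and Ces1g differed by 0.68, -0.04 and -0.07. The Ces3 genes, Ces3a and Ces3b, known as liver esterases higher in male mice, differed by 0.14 (95% interval -1.73 to 2.01) and 0.16 (-1.64 to 1.96). Known male-predominant liver genes, 11 listed and 8 tested with 0 called, summed to 7220, 25393 and 11213 normalized counts in S7HP+Snail tumors, 15915, 17724 and 4332 in S7HP tumors, and 2247, 3702 and 9059 in LHP tumors. S7HP tumor 12 was the lowest of its group there too, and their part in the esterase values was not tested.

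Fmo5, which in humans acts as a Baeyer-Villiger oxygenase and lies apart from the other FMO genes at chr3:97628804-97655282, had most of the FMO counts. It read 11.70, 12.54 and 10.95 in S7HP+Snail tumors, 12.88, 11.99 and 11.73 in S7HP tumors, and 9.53, 10.59 and 10.21 in LHP tumors. LHP tumors lay below the rest, and S7HP differed by 2.09 ± 0.45 (SE; limma adjusted p = 0.0126). Fmo1, the general FMO of rodent liver and kidney, read 6.80, 6.59 and 5.21 in S7HP tumors and 3.97, 5.44 and 5.14 in LHP tumors, a difference of 1.35 (limma adjusted p = 0.29). Fmo4, Fmo6 and Fmo9 were among the members below the filter.

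**Figure D3:**
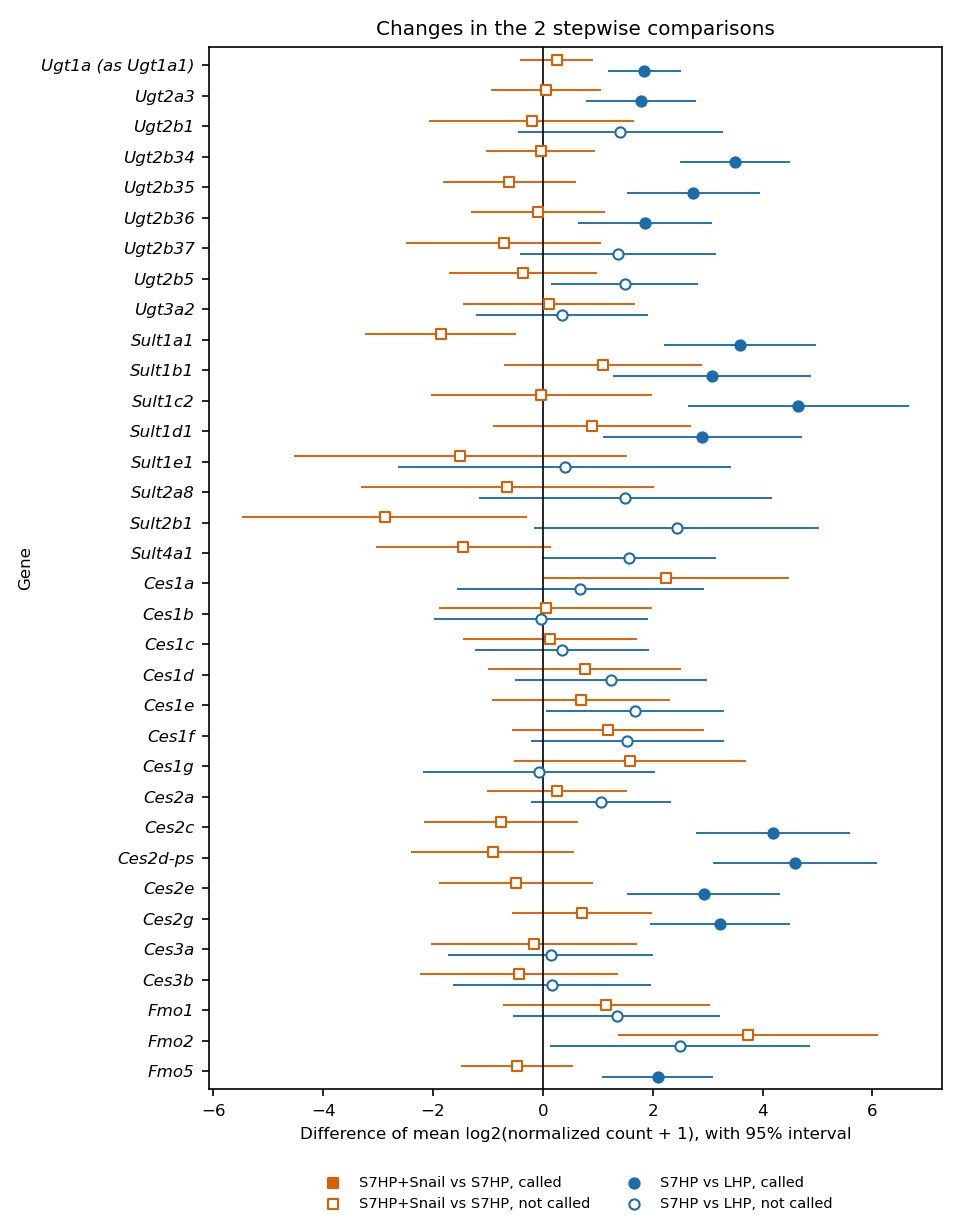
Differences of mean log2(normalized count + 1), as points with 95% intervals, for S7HP+Snail minus S7HP (squares) and S7HP minus LHP (circles), filled where limma's adjusted p was under 0.05. Filled circles lie between 1.79 (Ugt2a3) and 4.65 (Sult1c2), and no square is filled.

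The second comparison, S7HP+Snail against S7HP, concerned Snail. Between S7HP+Snail and S7HP tumors 0 of 41 were higher and 0 were lower by limma at an adjusted p under 0.05, where 1.01% of all 14215 tested genes were higher and 1.29% lower. At an unadjusted p under 0.05, 2 members were higher (Fmo2 and Ces1a) and 2 lower (Sult1a1 and Sult2b1), beside 8.53% and 9.29% of all tested genes. Of these, Ces1a reached the filter through the 3 S7HP+Snail tumors alone, Fmo2 through those and 1 S7HP tumor, and Sult2b1 through the 3 S7HP tumors and 1 S7HP+Snail tumor. Those 4 were also the members whose groups did not overlap, beside 9.53% of all genes not overlapping upward and 11% downward. For Ugt1a, Ugt2b34, Ces2g, Ces2e and Fmo5, all abundant, the differences from S7HP were small beside those of S7HP from LHP. That did not hold for every member. In the same order, Sult1a1 gave -1.86 and 3.59, Ces1f 1.19 and 1.54, and Ces1g 1.59 and -0.07. The Ugt1a difference was 0.25 (95% interval -0.41 to 0.92), and that of Ugt2b34 was -0.04 (-1.03 to 0.96). Ces2g differed by 0.72 (-0.55 to 1.99), Ces2e by -0.48 (-1.88 to 0.92) and Fmo5 by -0.47 (-1.48 to 0.54). A missed threshold at 3 tumors a group does not show that the groups were alike.

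Fmo2, the lung-type FMO, had the largest upward difference between S7HP+Snail and S7HP. It read 8.42, 8.92 and 6.89 in S7HP+Snail tumors, 5.96, 3.29 and 3.75 in S7HP tumors, and 0.29, 3.98 and 1.22 in LHP tumors. The S7HP+Snail tumors lay above all others, while S7HP and LHP overlapped through LHP tumor 3. Fmo2 reached the filter through the 3 S7HP+Snail tumors and S7HP tumor 9, so it was tested because it was high there. The difference from S7HP was 3.74 ± 1.06 (SE; limma unadjusted p = 0.0056, adjusted p = 0.101), and with 16 in place of 1 added to the counts it was 2.92 and passed (adjusted p = 0.0335). Over its alternatives the adjusted p ranged over 0.0335 to 0.276. Fmo5 supplied 84.2% to 92.5% of the FMO sum in S7HP+Snail tumors, 97.5% to 98.6% in S7HP tumors and 95.9% to 97.9% in LHP tumors, so the S7HP+Snail shares were lowest. Fmo6, next to Fmo2 on chromosome 1, was at 3.06, 2.00 and 1.96 in S7HP+Snail tumors and listed at 0 in 3 of 3 S7HP tumors, and it was called only with no filter (limma adjusted p = 0.045). Its levels are near that of 3 reads.

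In the other direction, Sult1a1 was lower in S7HP+Snail than in S7HP tumors, with a change of -1.86 ± 0.62 (SE; limma unadjusted p = 0.0133, adjusted p = 0.15). Its share of the SULT sum was 7.26% to 23.0% in S7HP+Snail tumors, 36.5% to 60.9% in S7HP tumors and 26.5% to 30.7% in LHP tumors. Sult2b1, a cholesterol and pregnenolone sulfotransferase, was at 2.81, 0 and 4.23 in S7HP+Snail tumors, 5.85, 4.38 and 5.45 in S7HP tumors, and 1.22, 3.27 and 3.87 in LHP tumors. S7HP tumors were the highest for this low gene (limma adjusted p = 0.232 for S7HP+Snail against S7HP). Ces1a, at 5.24, 4.24 and 4.02 in S7HP+Snail tumors and 2.81, 3.53 and 0.41 in S7HP tumors, differed by 2.25 (limma adjusted p = 0.279).

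**Figure D4:**
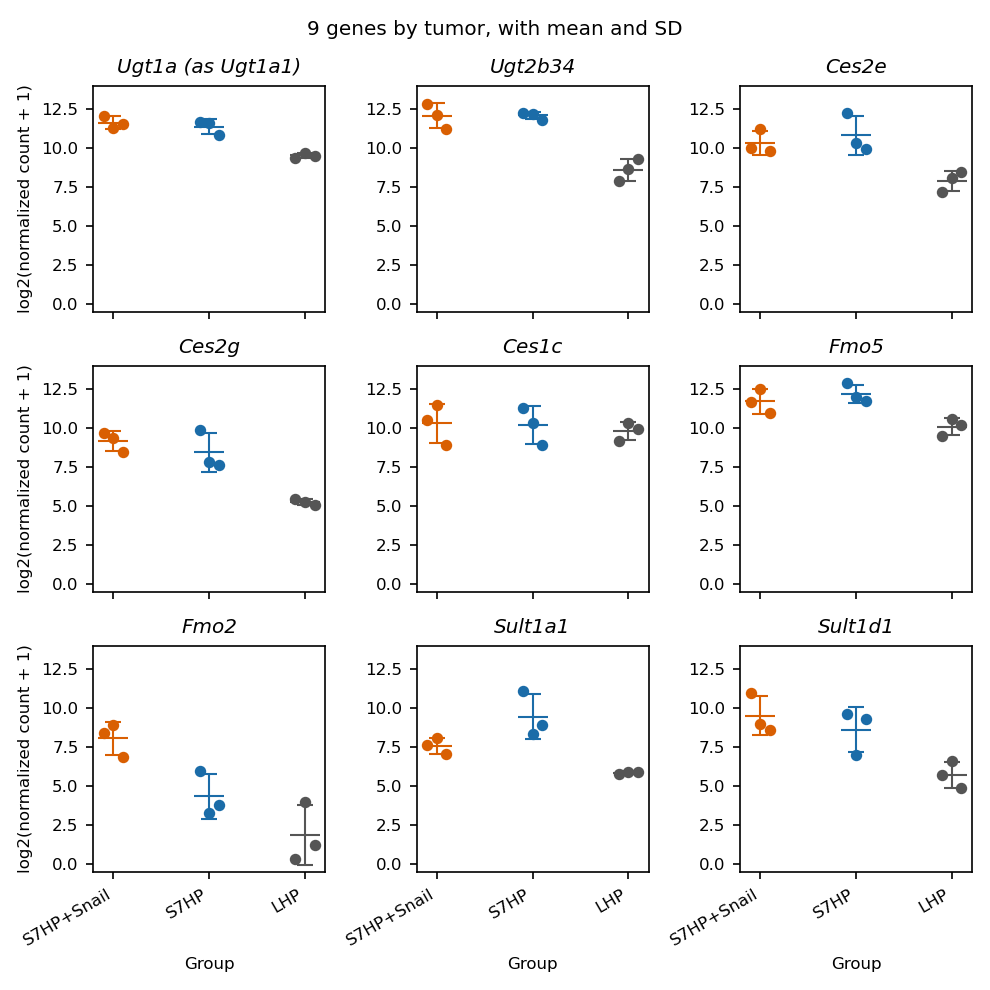
Log2(normalized count + 1) of 9 genes in each tumor, as points, with the group mean and SD, for S7HP+Snail, S7HP and LHP from left to right. The LHP tumors are lowest without overlap for Ugt1a, Ugt2b34, Ces2e, Ces2g, Fmo5, Sult1a1 and Sult1d1, Fmo2 is highest in S7HP+Snail tumors, and Ces1c overlaps in all 3 groups.

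The third comparison set S7HP+Snail against LHP and used the same LHP tumors as the first. There, 19 of 41 members were higher and 0 lower (limma adjusted p under 0.05), with 3.35% of all tested genes higher and 3.87% lower (7.22% in either direction), or 12 of 34 with Ugt1a counted once. Of the 19, Fmo2, Sult1b1 and Sult1c2 reached the filter only outside LHP. Over the 36 members with at least 1 LHP tumor at 4 or above 16 were higher, against 2.92% of all 13784 such genes. Of the members called in the S7HP comparison 18 were called here too. Fmo5, Sult1a1 and Ugt2b36 were called for S7HP and not S7HP+Snail, and Fmo2 the other way round, while the direct comparison of S7HP+Snail with S7HP called none of these 4. Ugt1a differed by 2.10 ± 0.30 in S7HP+Snail and 1.85 ± 0.30 in S7HP, Ugt2b34 by 3.46 ± 0.44 and 3.50 ± 0.44, and Ces2g by 3.94 ± 0.57 and 3.23 ± 0.57 (SE), all against LHP. Fmo2 differed by 6.24 ± 1.06 in S7HP+Snail (SE; limma adjusted p = 0.0108) and by 2.50 ± 1.06 in S7HP (SE; limma adjusted p = 0.126, or 0.0462 without LHP tumor 3). Over all alternatives the S7HP adjusted p ranged over 0.0462 to 0.346. LHP tumors 2 and 6, at 0.29 and 1.22, were below the level of 3 reads. With 16 in place of 1 added to the counts, Fmo2 differed by 3.81 in S7HP+Snail (limma adjusted p = 0.00585) and by 0.885 in S7HP (limma adjusted p = 0.315). Fmo5 differed by 1.62 ± 0.45 in S7HP+Snail (SE; limma adjusted p = 0.0603) with no overlap between the groups, and passed without S7HP+Snail tumor 15 (0.0338). Sult1a1 differed by 1.73 ± 0.62 (SE; limma adjusted p = 0.119) and passed without S7HP tumor 9 (0.0228). With only the 6 libraries compared, Sult1a1 and Ces1f also passed (limma adjusted p = 0.0442 and 0.0474). Fmo1 passed without S7HP+Snail tumor 15 (limma adjusted p = 0.0176, against 0.103 with it), and Ces1e and Ces1f without S7HP tumor 12 (0.0444 and 0.0281, against 0.0803 and 0.0649). In 28 members (21 with Ugt1a once) each S7HP+Snail tumor lay above each LHP tumor, as in 14.7% of all tested genes. Without LHP tumor 3 the count of members higher in S7HP+Snail was 11, and Ces2c, Ces2d-ps, Sult1b1, Sult1c2 and Sult1d1 were among those lost, at limma adjusted p-values of at most 0.0526, 0.0524, 0.06, 0.0635 and 0.0939 over the single libraries left out. Of these, Sult1b1 and Sult1d1 also lost the call without LHP tumor 2 or 6, Sult1c2 without LHP tumor 2, and Sult1d1 without S7HP+Snail tumor 13. Sult1c2 also missed the threshold with 16 added to the counts (limma adjusted p = 0.0802). Ces2e, Ugt2a3 and Ugt2b35 lost the call without any one of the 6 tumors compared or S7HP tumor 11, at limma adjusted p-values of at most 0.135, 0.111 and 0.112.

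Lists of genes around the enzymes are given beside 9.47% of all tested genes higher and 9.54% lower in S7HP than in LHP. Of 9 genes for the supply and use of UDP-glucuronate, 1 was higher in S7HP than in LHP and 0 lower. That was Ugdh, which makes UDP-glucuronate, at 11.10, 11.76 and 11.74 in S7HP tumors and 10.10, 10.74 and 10.16 in LHP tumors. Its change was 1.20 ± 0.28 (SE; limma adjusted p = 0.0176, at most 0.0673, above the threshold when LHP tumor 2, LHP tumor 6, S7HP tumor 11 or S7HP tumor 12 was left out). Of 11 tested genes for the sulfate donor, 2 were higher and 2 lower. The sulfate transporter Slc26a2 and the PAPS transporter Slc35b3 differed by 2.49 and 1.36, and the PAPS synthase Papss1 and the phosphatase Impad1 by -1.19 and -1.09. The call of Slc26a2 was lost without any one of LHP tumors 2, 3 and 6 or S7HP tumors 11 and 12 (limma adjusted p at most 0.069). That of Slc35b3 was lost without LHP tumor 2 or 6 (at most 0.057), and that of Impad1 without LHP tumor 2 or 6 or S7HP tumor 11 (at most 0.071). Among 17 other conjugating and hydrolysing enzymes, Gstt1, a glutathione transferase, Aadac, an arylacetamide deacetylase, and Ephx2, an epoxide hydrolase, were higher, by 2.99, 2.31 and 1.45, and 0 were lower. Ephx2 lost the call without LHP tumor 2 or 3 (limma adjusted p at most 0.0523). Of 8 genes of microsomal electron transfer and related reduction, 1 was higher: Ptgr1, an oxidoreductase, by 2.18, and Por, the reductase that serves cytochromes P450, was not called. Between S7HP+Snail and S7HP, 1 gene of these 4 lists was called, where 2.3% of all tested genes were called in either direction. That gene was Ptgr1, at -2.08 ± 0.45 (SE; limma adjusted p = 0.0474). The call was lost without any one tumor other than S7HP+Snail tumor 13 (at most 0.154).

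Receptors and factors known to regulate the families were higher in S7HP than in LHP in 9 of 17 cases and lower in 1. Hnf4a, a master factor of hepatocytes, was at 9.17, 8.46 and 8.45 in S7HP+Snail tumors, 10.19, 9.91 and 9.61 in S7HP tumors, and 6.73, 7.47 and 6.34 in LHP tumors. The 3 groups did not overlap, and the S7HP change was 3.05 ± 0.34 (SE; limma adjusted p = 0.000809). Foxa2, Onecut1 and Nr1i2 (the xenobiotic receptor PXR) differed in S7HP by 3.25, 3.85 and 2.47, and Nr1h4, Nr1h3, Cebpa and Nr0b2 by 1.54, 1.55, 1.58 and 2.74. Vdr, the vitamin D receptor, was lower by limma with a change of -2.88 ± 0.59 (SE; adjusted p = 0.0102). Nr1h3 lost the call without LHP tumor 2 or 3 or S7HP tumor 9, Cebpa without LHP tumor 2 or S7HP tumor 9, and Nr0b2 without any one of LHP tumors 2 and 6 and S7HP tumors 9 and 11 (limma adjusted p at most 0.0554, 0.0619 and 0.129). In S7HP+Snail against LHP 3 of the 17 were higher (Hnf4a, Foxa2 and Nr1h4) and 1 lower (Vdr). Of all tested genes 3.35% were higher and 3.87% lower there. In S7HP+Snail against S7HP none of the 17 was called, at 2.3% of all genes called in either direction.

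Markers of some cell types differed between the same groups. Where 9.47% of all tested genes were higher and 9.54% lower, of 14 tested hepatocyte markers 8 were higher and 0 lower in S7HP than in LHP, and their summed counts ranged over 218368 to 476392 in S7HP+Snail tumors, 273313 to 863693 in S7HP tumors and 89426 to 164837 in LHP tumors. Of 12 stellate cell and fibroblast markers 6 were lower and 0 higher in S7HP, with sums of 15938 to 26746 in S7HP+Snail tumors, 8670 to 13220 in S7HP tumors and 52432 to 72297 in LHP tumors. Of 10 intestinal and gastric markers 7 were higher and 0 lower, with sums of 1168 to 23992 in S7HP+Snail tumors, 17437 to 40147 in S7HP tumors and 204 to 1579 in LHP tumors. Of these 10, Tff3 and Gkn1 reached the filter only outside LHP, so they were tested because they were high there. In LHP tumors Tff3 was at 3.56, 0 and 0, and Gkn1 at 2.35, 0 and 0. Biliary and progenitor markers, 4 of 10 higher and 1 lower in S7HP, summed to 37724 to 371164 in S7HP+Snail tumors, 88984 to 193196 in S7HP tumors and 99270 to 185528 in LHP tumors. Spp1 was the highest of the 10 in each tumor, at 14.54 to 18.29, and weighs most in these sums. Prom1 and Tspan8 were lower, and Sox9 higher, in every LHP tumor than in every other tumor. None of the markers on these 4 lists was listed at 0 in 9 of 9 tumors. On the other lists, 1 of 10 endothelial and 1 of 10 macrophage and Kupffer markers were lower in S7HP than in LHP, with 0 higher. Of tested erythroid, adipocyte and lymphocyte markers, 1 of 7, 2 of 3 and 0 of 5 were higher, with 0 lower. Only 3 of the 8 adipocyte markers were tested, and Adipoq, Plin1, Cfd, Retn and Lep were below the filter. The adipocyte marker Cidec and the erythroid marker Slc4a1 reached the filter only outside LHP. In S7HP+Snail against LHP, 5 hepatocyte, 4 intestinal and 2 biliary markers were higher and 4 stellate markers lower, where 3.35% of all genes were higher and 3.87% lower. Between S7HP+Snail and S7HP, 0 hepatocyte, 0 stellate and 0 biliary markers were called. There 1 intestinal marker was lower and 1 endothelial marker higher, where 1.01% of all tested genes were higher and 1.29% lower. In bulk tumors fewer hepatocytes and less of these RNAs per hepatocyte cannot be told apart, and the part of these markers in the enzyme differences was not tested.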

How the data were processed

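Gene expression was measured in 9 mouse liver tumors with 3′ libraries made from 500 ng of total RNA, per the labels' protocols. Bowtie2, edgeR and the build mm10 are named by the submitters' processing notes, with no versions. The sources used here do not give the counting tool or annotation. The authors deposited log2 values, and these behave as log2 of a quantile-normalized count with 1 added. All 9 libraries have an equal maximum, and the unlogged values are whole multiples of a ninth (tolerance 0.01, widened by a relative 1e-06) for 100% of values. Library depth is thus not preserved, and count tests were not run.

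All 9 libraries were fitted together with limma 3.58.1 (R 4.3.3; lmFit, eBayes with trend and robust variances, 6 residual degrees of freedom) over the 14215 genes that reached 4 on the log2 scale in 3 or more libraries. Tests were two-sided with Benjamini-Hochberg adjustment over all these genes, and 0.05 was the threshold. The procedure was tested on simulated data. The members, gene lists and tests were chosen with earlier results of these data known. Genes named are members called in any comparison, the 2 highest of each family, called list members, and others chosen after their values were seen.

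Coordinates and coding ends come from GENCODE mouse release 21 (GRCm38), promoters from RefSeq (GRCm38.p6), where 52 members matched. Alternatives were other filters, another pseudocount, scaling, variance model and library choice, and each library left out. Figures were drawn with matplotlib 3.10.9 (Python 3.11.15). Some items are not reported here.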

Additional observations from a re-analysis of the deposited data

How the results depend on the processing

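Counts of members hold Ugt1a 8 times unless stated. For S7HP against LHP, 17 to 25 members were higher with each library left out in turn and 19 to 22 under the other settings, or 14 with Ugt1a counted once, a setting chosen after seeing the data. For S7HP+Snail against LHP, leaving out one library gave 11 to 21, the lowest without LHP tumor 3, and counting Ugt1a once gave 12. For S7HP+Snail against S7HP the count higher was 0 except for 1 with no filter (Fmo6) and 1 with a pseudocount of 16 (Fmo2). No member was called lower in any fit of these comparisons. Counts over all genes moved more. Leaving out one library gave 1465 to 3163 genes for S7HP against LHP, 63 to 451 for S7HP+Snail against S7HP, and 293 to 1049 for S7HP+Snail against LHP. Fitting only the 6 libraries compared gave 120 for S7HP+Snail against S7HP and 682 for S7HP+Snail against LHP, but 3430 for S7HP against LHP, where all 9 gave 327, 1026 and 2702. The cause was not tested. No filter added Sult2a2 and Sult2a5 to the members higher in S7HP and removed Ugt2b36. Another variance model ended the calls of Sult1d1 and Ugt2b36 in S7HP. No filter, and also the other variance model, ended those of Ces2e, Ugt2a3 and Ugt2b35 in S7HP+Snail against LHP, and fitting only the 6 libraries ended those of Sult1c2 and Ugt2b35 there. In that comparison no filter added Fmo6 and Sult2a2. Fitting only the 6 libraries added Ces1f and Sult1a1 there (limma adjusted p = 0.0474 and 0.0442). Read depth is unknown, so levels near or below that of 3 reads carry little precision. Among these were Sult1b1, Sult1c2 and Ces1a in LHP, and Fmo2 in LHP tumors 2 and 6. Fmo6 and most values of the Sult2a genes below the filter were also among them. No paired analysis was possible because the groups share no replicate number.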
